A study of Mus musculus with 29 samples.

Results

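The 10 genes of the response to amino acid stress that the transcription factor Atf4 is known for were followed over every group of a differentiation series: Atf4, Asns, Chac1, Ddit3, Trib3, Sesn2, Slc7a11, Slc7a5, Slc3a2 and Nupr1. They were chosen by name, with earlier results of these data known. Each was read as the transcript cluster whose single annotated symbol was that of the gene. The cluster of highest mean was used where a gene had several. They are 10 of the 30142 genes that the array names in this way, and all 10 were among the 22063 genes tested, for which a level over the array median was required on 2 or more arrays. For 9 of them the level was over the array median on 29 of 29 arrays, while Trib3 was over it on 5, which were the 4 mESC arrays and 1 BERKO mDPC array. Trib3 thus entered the tests mainly through mESC, where it is highest, and counts without it are given where it was called. Expression was measured on 29 mouse Clariom D (MTA 1.0) arrays in 14 groups, without feeder cells at any stage. A wild-type line (WT) and a line labelled BERKO, the name of an ERβ knockout (estrogen receptor beta, encoded by Esr2), were sampled as embryonic stem cells in LIF medium (mESC), as neural precursor cells expanded with N2, FGFb and laminin (NPC), as midbrain neural precursors kept with FGFb, FGF8b, Shh and ascorbic acid (mDPC), and as cells kept with N2 and ascorbic acid, labelled mature midbrain neurons (MN). NPC and mDPC received DMSO or 0.5 nM LY3201, an ERβ-selective agonist, for 4 days, and MN cells were sampled without and with 0.5 nM LY3201, with no duration given. The groups without agonist are called untreated, as their treatment label has it. Each group held 2 arrays, except untreated BERKO MN with 3. The number of lines or clones behind each genotype is not given, so genotype and line cannot be told apart.

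When amino acids run short, uncharged tRNA activates the kinase Gcn2 (gene Eif2ak4), and unfolded protein in the endoplasmic reticulum activates Perk (gene Eif2ak3); both phosphorylate the initiation factor eIF2α, which lowers general translation but favours translation of the Atf4 mRNA. This is the integrated stress response (ISR). Atf4 protein then binds C/EBP-ATF response elements in genes of amino acid import, amino acid synthesis, tRNA charging and feedback, so that a change in Atf4 protein need not show in Atf4 mRNA, which is what an array reads.

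All values are log2 levels as deposited, and a difference is between group means ± SE from 1 limma model over the 29 arrays, with p adjusted over all 22063 genes and called at 0.05. Array medians lay between 3.519 and 3.736, and the 95th percentile of the negative controls lay between 6.632 and 7.661 by array. Atf4, Asns, Sesn2, Slc7a5 and Slc3a2 were above their array's percentile in 29 of 29 arrays, Slc7a11 in 18, Ddit3 in 16 and Nupr1 in 2; Chac1 and Trib3 were above it in none, so that their levels were not clearly told from background and a difference in them may understate a change. Esr2 read between 3.796 and 4.463 in the 15 BERKO arrays and between 3.214 and 3.472 in the 14 WT arrays, which goes against the label at a level near background. The deleted part of Esr2 is not in the labels, so WT and BERKO are used as names of the labels throughout. Nanog had a mean of 16.28 in WT and 16.58 in BERKO mESC and at most 5.21 in any later group. Fabp7, a marker of neural precursors, was at 18.97 or more in every group after mESC, but other precursor markers did not stay level. Hes5 had means of 7.93 in WT and 8.89 in BERKO untreated NPC, and 4.53 and 4.07 in untreated MN. Nes had means of 12.72 and 13.40 in untreated NPC, and 9.28 and 7.91 in untreated mDPC. From NPC to mDPC in WT, 4 of 8 tested precursor genes were called lower and 1 higher, against 15.8% and 14.6% of all tested genes. Th, which defines dopamine neurons, read at most 3.57 in any array. Within BERKO mESC, and within WT NPC given LY3201, both titles carry 1 number in common. Separate cultures are not stated for these pairs, so the p-values may in part measure technical spread only.

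RefSeq promoter windows of GRCm38.p6, from 250 bases before to 50 bases after the annotated start, were read for 9 of the 10 genes, all but Slc7a5. The core of the C/EBP-ATF response element, TGATGNAA on either strand, was found in 5 of these 9 windows and in 3.97% of all 32851 windows of the same length (1304 windows). The 5 windows are shown because they hold the core letters of the element that Atf4 is known to bind. Matches are in capitals, and each sequence is 5′ to 3′ on the strand of its gene.
Asns, chr6:7693160-7693459, minus strand: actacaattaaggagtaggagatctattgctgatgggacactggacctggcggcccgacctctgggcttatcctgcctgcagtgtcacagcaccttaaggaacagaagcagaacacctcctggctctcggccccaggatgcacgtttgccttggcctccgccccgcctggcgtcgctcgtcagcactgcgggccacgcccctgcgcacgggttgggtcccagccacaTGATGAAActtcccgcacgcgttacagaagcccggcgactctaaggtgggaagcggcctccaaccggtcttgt
Chac1, chr2:119350992-119351291, plus strand: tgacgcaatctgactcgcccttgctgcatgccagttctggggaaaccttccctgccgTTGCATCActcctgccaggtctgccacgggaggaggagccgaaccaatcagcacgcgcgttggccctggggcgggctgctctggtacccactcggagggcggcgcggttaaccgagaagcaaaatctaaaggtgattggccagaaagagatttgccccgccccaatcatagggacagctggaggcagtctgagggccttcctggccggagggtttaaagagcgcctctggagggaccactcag
Trib3, chr2:152344011-152344310, minus strand: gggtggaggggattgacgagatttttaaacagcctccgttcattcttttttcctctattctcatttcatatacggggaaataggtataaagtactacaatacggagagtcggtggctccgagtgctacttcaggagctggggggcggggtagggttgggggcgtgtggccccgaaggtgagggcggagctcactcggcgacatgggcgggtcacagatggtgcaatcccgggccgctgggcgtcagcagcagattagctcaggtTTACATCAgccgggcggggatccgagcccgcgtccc
Slc7a11, chr3:50443564-50443863, minus strand: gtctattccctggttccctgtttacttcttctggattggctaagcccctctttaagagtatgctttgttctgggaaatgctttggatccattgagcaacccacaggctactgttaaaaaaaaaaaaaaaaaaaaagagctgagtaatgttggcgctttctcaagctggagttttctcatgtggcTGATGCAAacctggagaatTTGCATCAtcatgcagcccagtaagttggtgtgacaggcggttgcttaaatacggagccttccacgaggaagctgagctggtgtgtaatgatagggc
Nupr1, chr7:126625421-126625720, minus strand: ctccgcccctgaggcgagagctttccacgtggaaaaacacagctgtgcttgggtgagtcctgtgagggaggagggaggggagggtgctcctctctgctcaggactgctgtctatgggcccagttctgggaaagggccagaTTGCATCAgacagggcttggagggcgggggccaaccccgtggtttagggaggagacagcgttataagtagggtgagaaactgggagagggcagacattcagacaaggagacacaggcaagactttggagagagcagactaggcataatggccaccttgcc

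Positions are counted from the annotated start as 0. The match in Asns, which encodes asparagine synthetase, began at -23 on the strand of the gene. Chac1, whose product cleaves glutathione, had its match at -193 on the opposite strand, and Trib3, a pseudokinase that restrains Atf4 and Ddit3, at 14 on the opposite strand. Slc7a11, the cystine carrier of the cystine-glutamate exchanger xCT, had 2 matches on opposite strands, at -66 and -47. In Nupr1, a small stress-induced chromatin protein, the match began at -110 on the opposite strand. The windows of Atf4, Ddit3, Sesn2 and Slc3a2 did not hold these letters. The antioxidant response element core bound by Nrf2, TGACNNNGC, was found in 2 of 9 windows, Asns at -172 and Sesn2 at -36, against 12.4% of all windows, and neither match overlapped a TGATGNAA match. TGACGTCA, the cAMP response element, was in 0 of 9 (1.79% of all windows), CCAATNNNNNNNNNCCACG, the endoplasmic reticulum stress element, in 0 of 9 (0.119%), and GGTCANNNTGACC, a form of the estrogen response element, in 0 of 9 (0.07%). A match describes letters only and was not tested as a binding site, and its absence describes this window only.

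**Figure D1:**
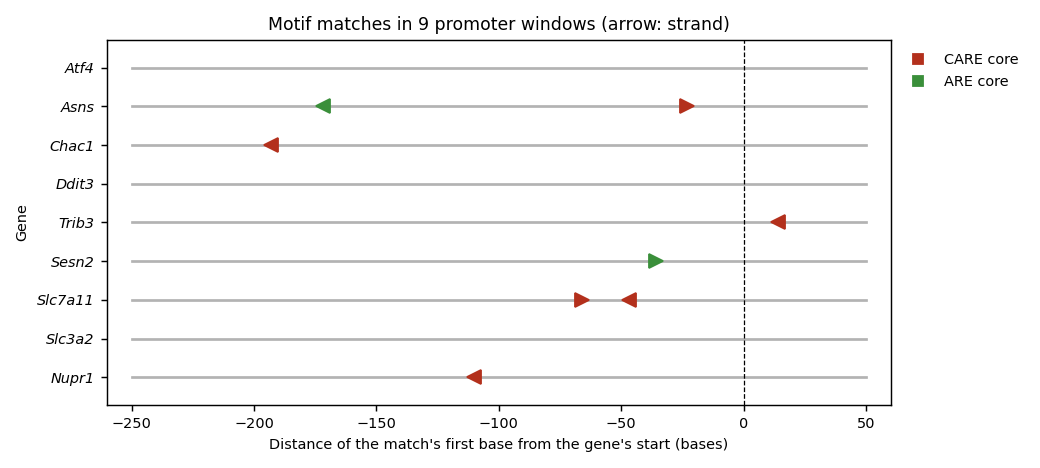
Matches to TGATGNAA (CARE core, red) and TGACNNNGC (ARE core, green) in the promoter windows of 9 genes. The x axis is the distance in bases of the first base of a match from the annotated start, and arrows point along the strand of the match. Asns, Chac1, Trib3, Slc7a11 and Nupr1 hold the red mark, Slc7a11 with 2 of them, at -66 and -47.

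The 10 genes had their highest group means at 3 different places in the series. Slc7a11, Slc7a5, Slc3a2, Chac1 and Ddit3 were highest in BERKO mDPC, either untreated or with LY3201. Atf4, Asns, Trib3 and Sesn2 were highest in mESC of either line. Nupr1 was highest in WT MN with LY3201, where its 2 arrays (7.47 and 6.72) bracketed the untreated WT arrays.

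Among the regulators, Atf4 itself spanned the range from 7.47 in a BERKO MN array to 9.91 in a BERKO mESC array. Its mESC arrays read 9.77 and 9.71 in WT and 9.68 and 9.91 in BERKO. The next group in order, BERKO mDPC with LY3201 at a mean of 8.75, lay 1.00 below the mean of WT mESC. Below that the order of Atf4 group means ran in small steps, with BERKO mDPC above BERKO NPC, then WT NPC with LY3201, WT mDPC and untreated WT NPC, and MN of both lines lowest at means between 7.53 and 7.77. The means of untreated WT mDPC and untreated WT NPC, 8.22 and 8.22, were not separated.

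Asns had 3 tiers. The 4 mESC arrays read 13.16, 13.24, 13.21 and 13.25, and the mean of WT mESC was 2.68 above that of untreated BERKO mDPC. BERKO mDPC, at 10.52 untreated and 10.23 with LY3201, was in turn 1.24 above BERKO NPC at its lower edge. The remaining groups lay between 7.89 and 8.99. Sesn2, which encodes a leucine sensor that restrains the growth kinase mTORC1, ran from 10.22 in WT mESC down to 6.88 in untreated BERKO MN. Trib3 was highest in WT mESC, at 4.47 and 4.36, and outside the mESC arrays only the BERKO mDPC array at 3.7 exceeded 3.519, the lowest array median.

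Slc7a11 had the widest range of the 10, 12.10 between its lowest and highest array. It read 3.99 and 3.98 in WT mESC and 3.81 and 3.81 in BERKO mESC, levels within background, and 15.31 to 15.91 in the 4 BERKO mDPC arrays. In the order of its group means, untreated BERKO mDPC lay 3.37 above untreated WT mDPC, WT mDPC with LY3201 lay 2.61 above BERKO NPC with LY3201, untreated WT MN lay 1.44 below BERKO MN with LY3201, and WT mESC lay 2.47 below WT MN with LY3201. Arrays of mDPC of either line thus read above those of NPC of either line, and BERKO arrays above WT arrays within each stage after mESC. Slc7a5, the LAT1 carrier of large neutral amino acids, and Slc3a2, the heavy chain that both carriers need at the membrane, were also highest in BERKO mDPC. The mean of Slc7a5 in BERKO mDPC with LY3201 was 1.24 above that of WT mDPC with LY3201, and that of Slc3a2 was 0.85 above WT mESC. Chac1 had a mean of 5.94 in untreated BERKO mDPC and 5.62 with LY3201, and lay between 3.85 and 4.43 in the other 12 groups.

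**Figure D2:**
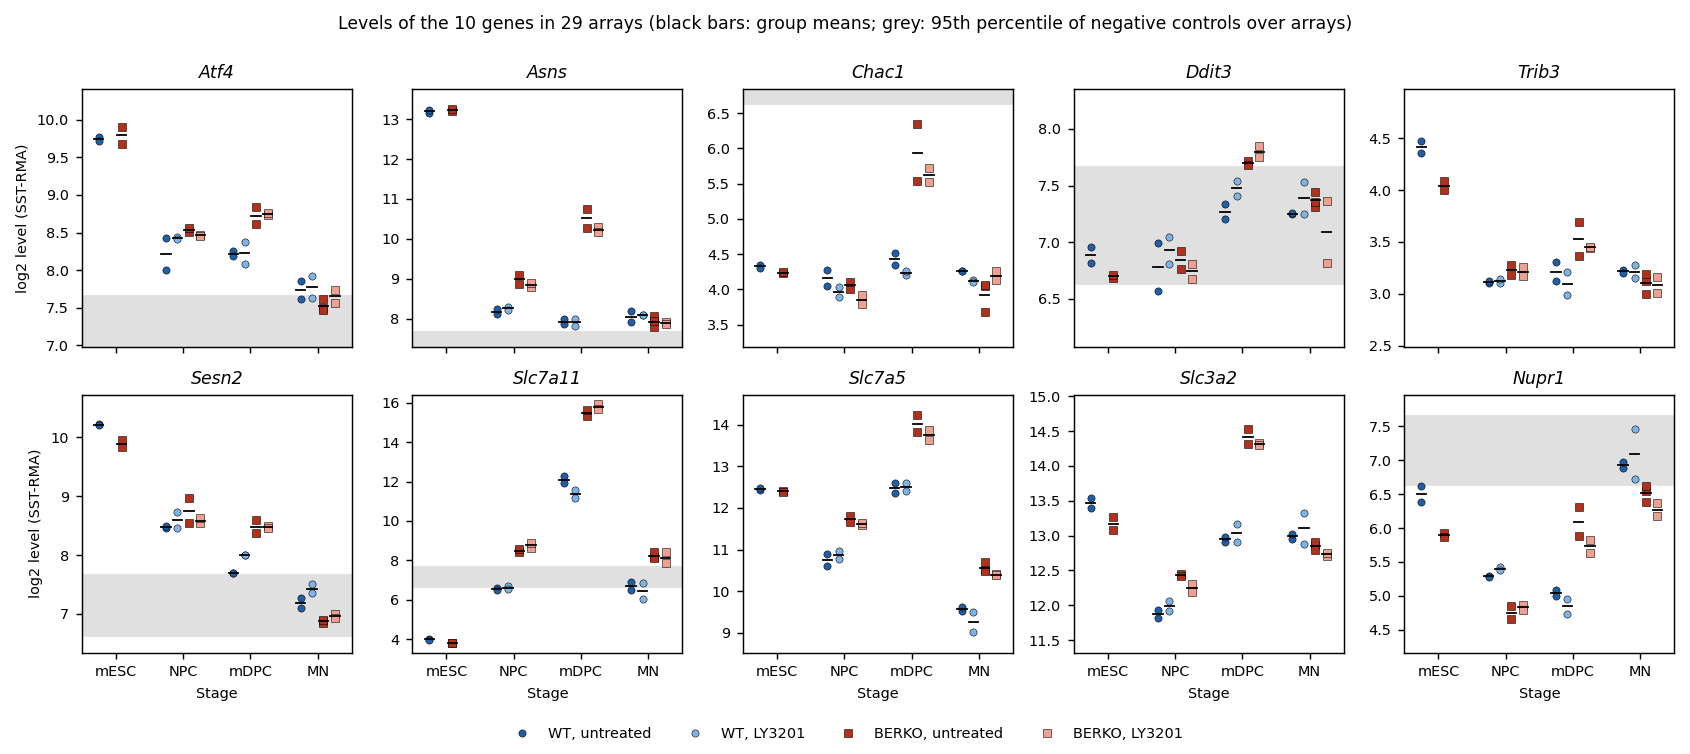
Log2 level (y axis) of each gene in the 29 arrays by stage (x axis). Circles are WT and squares BERKO, pale symbols received LY3201, black bars are group means, and the grey band is the range over arrays of the 95th percentile of the negative controls. The 4 BERKO mDPC squares lie above the 4 WT mDPC circles in all 10 panels.

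In mDPC, 8 of 10 were called higher in untreated BERKO cells and 0 lower, against 8.51% of all tested genes higher and 5.32% lower. The 10 genes were chosen with earlier results of these data known, so such counts describe them and do not test them as a set. With LY3201, 9 of 10 were called higher and 0 lower, against 7.23% and 8.1%, and without Trib3 the count was 8 of 9. Fewer than 9 were called with LY3201 when any 1 of the compared arrays was left out. The median difference of the 10 was 1.26 untreated and 1.07 with LY3201, beside 0.02 and -0.02 over all tested genes. All 4 BERKO mDPC arrays lay above all 4 WT mDPC arrays for 10 of 10 genes, which was so for 12.3% of all tested genes. The 2 treatments are separate sets of arrays of the same 2 lines. In bulk RNA of this kind, fewer cells of a type and less RNA per cell cannot be told apart.

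Of the transporters, Slc7a11 read 15.31 and 15.62 in untreated BERKO mDPC and 15.91 and 15.66 with LY3201. In WT mDPC it read 11.91 and 12.28 untreated and 11.17 and 11.59 with LY3201. The groups stayed more than 3 log2 units apart, and the difference was 3.37 ± 0.23 untreated (10.4-fold on this scale, limma adjusted p = 2.47e-09) and 4.40 ± 0.23 with LY3201 (21.2-fold, adjusted p = 3.95e-11). Only 0.122% of all tested genes had a larger difference in untreated mDPC. Slc3a2 read 14.52 and 14.31 in untreated BERKO mDPC and 14.32 and 14.30 with LY3201, against 12.91 and 12.98 in untreated WT and 13.17 and 12.91 in WT with LY3201. Its BERKO arrays were all more than 1 log2 unit above its WT arrays. The difference was 1.47 ± 0.12 untreated (adjusted p = 4.76e-08) and 1.28 ± 0.12 with LY3201 (adjusted p = 2.66e-07). Slc7a5 read 14.23 and 13.84 in untreated BERKO mDPC and 13.87 and 13.63 with LY3201, against 12.59 and 12.37 in untreated WT and 12.60 and 12.40 in WT with LY3201. Again no BERKO array overlapped a WT array, with differences of 1.55 ± 0.15 (adjusted p = 3.89e-07) and 1.24 ± 0.15 (adjusted p = 5.56e-06).

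Of the enzymes, Asns read 10.75 and 10.28 in untreated BERKO mDPC and 10.29 and 10.18 with LY3201. Its WT mDPC arrays read 7.88 and 7.98 untreated and 7.99 and 7.82 with LY3201. The WT arrays stood within 0.2 of each other and the BERKO arrays more than 2 log2 units above them, a difference of 2.59 ± 0.13 untreated (6.0-fold, adjusted p = 5.92e-11) and 2.33 ± 0.13 with LY3201 (5.02-fold, adjusted p = 1.92e-10). Larger differences were seen for 0.222% of all tested genes in untreated mDPC and 0.394% with LY3201. Chac1 read 6.34 and 5.53 in untreated BERKO mDPC and 5.52 and 5.71 with LY3201, against 4.34 and 4.52 in untreated WT and 4.20 and 4.26 in WT with LY3201. The 2 untreated BERKO arrays were 0.81 apart, the widest gap of the 10 genes in that group, and both still lay more than 1 log2 unit above WT. The differences were 1.51 ± 0.17 (adjusted p = 3.96e-06) and 1.38 ± 0.17 (adjusted p = 1.01e-05), between levels that did not clear the negative controls.

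Of the regulators, Atf4 differed less. It read 8.83 and 8.62 in untreated BERKO mDPC and 8.73 and 8.76 with LY3201, against 8.25 and 8.18 in untreated WT and 8.38 and 8.08 in WT with LY3201. The arrays did not overlap, and the difference was 0.51 ± 0.14 untreated (adjusted p = 0.0156) and 0.51 ± 0.14 with LY3201 (adjusted p = 0.0133). Each call was lost when any 1 of 3 arrays was left out, which left 1 array in that group. Untreated, the difference in Atf4 was 0.542 without WT replicate 1 (adjusted p = 0.0539), 0.475 without WT replicate 2 (adjusted p = 0.104) and 0.40 without BERKO replicate 1 (adjusted p = 0.185). With LY3201 it was 0.365 without WT replicate 2 (adjusted p = 0.183), 0.524 without BERKO replicate 1 (adjusted p = 0.0602) and 0.505 without BERKO replicate 2 (adjusted p = 0.0674). When only the compared groups were fitted, the adjusted p with LY3201 was 0.0915.

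Nupr1 read 6.31 and 5.88 in untreated BERKO mDPC and 5.63 and 5.82 with LY3201, against 5.08 and 5.0 in untreated WT and 4.95 and 4.74 in WT with LY3201, without overlap. The difference was 1.05 ± 0.18 (adjusted p = 0.000266) and 0.89 ± 0.18 (adjusted p = 0.00129). Sesn2 read 8.60 and 8.37 in untreated BERKO mDPC and 8.49 and 8.46 with LY3201, against 7.69 and 7.69 in untreated WT and 8.0 and 8.01 in WT with LY3201. Its BERKO arrays lay above all WT arrays, and its difference was 0.79 ± 0.12 untreated (adjusted p = 6.19e-05) and 0.47 ± 0.12 with LY3201 (adjusted p = 0.00768). With LY3201 the Sesn2 call was lost without WT replicate 1 (0.466, adjusted p = 0.0506) or BERKO replicate 1 (0.456, adjusted p = 0.0516).

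Trib3 read 3.7 and 3.37 in untreated BERKO mDPC and 3.45 and 3.46 with LY3201, against 3.13 and 3.31 in untreated WT and 3.21 and 2.99 in WT with LY3201. Of these 8 arrays, only the one at 3.7 was over its array's median, so these differences are between levels that the array does not separate from background. The arrays did not overlap, and the difference was 0.31 ± 0.10 untreated (adjusted p = 0.053) and 0.35 ± 0.10 with LY3201 (adjusted p = 0.0272). The call with LY3201 was lost without WT replicate 2 (0.238, adjusted p = 0.276), without BERKO replicate 1 (0.356, adjusted p = 0.101), without BERKO replicate 2 (0.346, adjusted p = 0.104) and when only the compared groups were fitted (adjusted p = 0.153). Ddit3, which encodes the pro-apoptotic factor CHOP, read 7.72 and 7.68 in untreated BERKO mDPC and 7.85 and 7.75 with LY3201, against 7.33 and 7.21 in untreated WT and 7.41 and 7.54 in WT with LY3201. Its difference missed the threshold in both treatments, at 0.43 ± 0.15 (adjusted p = 0.0657) and 0.32 ± 0.15 (adjusted p = 0.171). A second cluster of Ddit3 gave 0.504 (adjusted p = 0.0522) and 0.302 (adjusted p = 0.266).

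**Figure D3:**
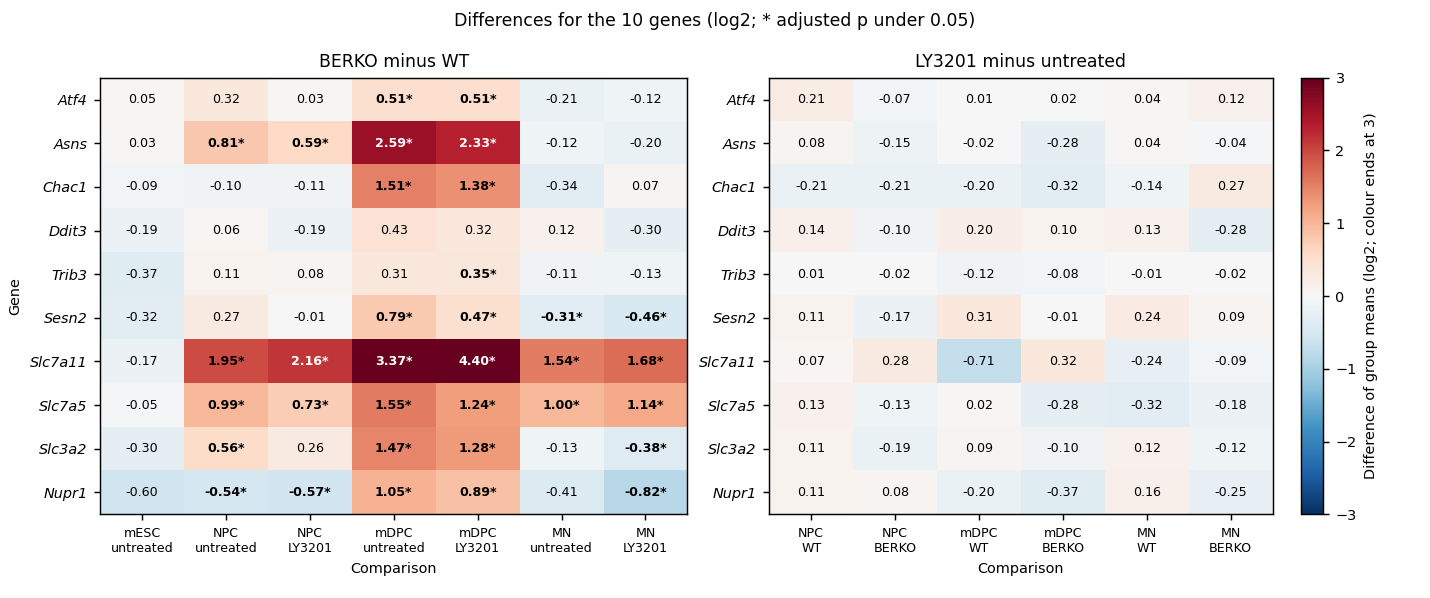
Differences of group means (log2) for the 10 genes, BERKO minus WT at left by stage and treatment and LY3201 minus untreated at right by stage and line; asterisks mark an adjusted p under 0.05 in limma. The mDPC columns at left run from 0.31 to 4.40 and are all positive, and no cell at right carries an asterisk.

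Markers of cell types and of division also differed between the mDPC lines. The counts below stand beside 8.51% of all tested genes called higher and 5.32% lower in untreated BERKO mDPC. Of 9 tested proliferation genes, 8 were lower in untreated BERKO mDPC and 0 higher, and the mean of the list lay between 4.96 and 5.01 in the BERKO arrays and between 6.17 and 6.21 in the WT arrays. Of 6 tested oligodendrocyte lineage genes, 3 were higher and 0 lower, with list means of 7.68 to 7.84 in BERKO and 6.87 in WT. Their largest member difference was in Olig2 (14.91 against 12.64), while Mbp stayed within background (4.80 against 3.77). Of 10 neuron genes, 2 were lower and 0 higher, with list means of 6.73 to 6.78 in BERKO and 7.33 to 7.37 in WT. Of 8 astrocyte genes, 3 were higher and 1 lower, the lower one being Gfap (13.30 against 16.53). Of 8 neural precursor genes, 1 was higher and 2 lower, with list means 10.56 to 10.6 in BERKO and 10.65 to 10.81 in WT. The mesenchymal and ependymal lists had 0 called members of 8 and 5 in limma. The part of these marker genes in the differences of the 10 genes was not tested.

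In mESC, before neural induction, 0 of 10 genes were called between the lines in limma, with 4 of 10 at an unadjusted p under 0.05, against 1.68% of all tested genes called higher and 2.53% lower, so that this count is near the background. It was 1 of 10 with the filter at the 75th percentile and 1 of 10 after quantile normalization. The arrays of the lines did not overlap for 8 of 10, against 47.8% of all tested genes in either direction, and the median difference of the 10 was -0.18 beside 0.03 over all tested genes. Trib3 read 4.47 and 4.36 in WT and 4.00 and 4.09 in BERKO, a difference of -0.37 ± 0.10 (adjusted p = 0.0535) without overlap. Nupr1 read 6.62 and 6.38 in WT and 5.93 and 5.87 in BERKO, a difference of -0.60 ± 0.18 (adjusted p = 0.0631). Asns and Atf4 overlapped between the lines, with differences of 0.03 ± 0.13 and 0.05 ± 0.14. For the second cluster of Ddit3 the difference in mESC was -0.638 and was called (adjusted p = 0.0362), against -0.187 (adjusted p = 0.584) for the cluster used.

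In NPC, 4 of 10 were called higher and 1 lower in untreated BERKO cells, against 10.6% and 5.08% of all tested genes. These 4 were the 3 transporters and Asns. Slc7a11 read 8.41 and 8.57 in BERKO and 6.57 and 6.52 in WT, a difference of 1.95 ± 0.23 (adjusted p = 4.96e-06). Slc7a5 read 11.80 and 11.67 against 10.88 and 10.60, a difference of 0.99 ± 0.15 (adjusted p = 0.000102). In both genes the BERKO arrays lay above the WT arrays, and WT Slc7a11 was within background. Asns read 8.87 and 9.11 against 8.12 and 8.24 (0.81 ± 0.13, adjusted p = 0.000222). Slc3a2 read 12.45 and 12.43 against 11.94 and 11.82 (0.56 ± 0.12, adjusted p = 0.00304), and 0.352 (adjusted p = 0.119) after quantile normalization. Nupr1 went the other way, at 4.66 and 4.84 in BERKO and 5.29 and 5.28 in WT (-0.54 ± 0.18, adjusted p = 0.0454). This Nupr1 call was lost without any 1 of the 4 arrays, with values between -0.629 and -0.442 and adjusted p up to 0.221. Chac1 (-0.10 ± 0.17), Ddit3 (0.06 ± 0.15), Trib3 (0.11 ± 0.10), Atf4 (0.32 ± 0.14, adjusted p = 0.138) and Sesn2 (0.27 ± 0.12, adjusted p = 0.131) were not called.

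With LY3201, 3 of 10 were called higher and 1 lower in BERKO NPC, against 4.56% and 5.81% of all tested genes. Slc7a11 differed by 2.16 ± 0.23 (adjusted p = 1.47e-06), Slc7a5 by 0.73 ± 0.15 (adjusted p = 0.00256) and Asns by 0.59 ± 0.13 (adjusted p = 0.00564). Nupr1 was lower (-0.57 ± 0.18, adjusted p = 0.0464). The Asns call was lost without WT replicate 2 (0.547, adjusted p = 0.0532) or BERKO replicate 2 (0.531, adjusted p = 0.0719), which leaves 2 of 10 called in each case, and the Nupr1 call without any 1 of the 4 arrays (-0.604 to -0.527, adjusted p up to 0.224). With the same-number WT arrays averaged, Asns and Nupr1 had adjusted p = 0.0525 and 0.208. In untreated NPC, 9 of 9 tested proliferation genes were higher in BERKO (list means 11.47 to 11.56 against 10.54 to 10.78). Of 8 mesenchymal genes, 6 were lower (5.03 to 5.16 against 7.04 to 7.05). These counts stand beside 10.6% of all tested genes higher and 5.08% lower in untreated NPC. The part of these marker genes in the differences was not tested.

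In untreated MN, 2 of 10 were called higher in BERKO and 1 lower, against 13.5% and 7.31% of all tested genes. These counts are near the background. Slc7a11 read 8.18, 8.11 and 8.40 in BERKO and 6.89 and 6.50 in WT, a difference of 1.54 ± 0.21 (adjusted p = 1.47e-05). Slc7a5 read 10.52, 10.69 and 10.49 in BERKO and 9.52 and 9.62 in WT, a difference of 1.00 ± 0.14 (adjusted p = 2.02e-05). Neither gene overlapped between the lines. Sesn2 was lower, at 6.88, 6.84 and 6.90 in BERKO and 7.09 and 7.28 in WT (-0.31 ± 0.11, adjusted p = 0.042), a call lost without WT replicate 2 (-0.22, adjusted p = 0.329) and without each BERKO array (-0.325 to -0.294, adjusted p up to 0.101). Asns read 7.79, 8.07 and 7.94 in BERKO and 7.91 and 8.20 in WT, which overlapped (-0.12 ± 0.12, adjusted p = 0.547). Chac1, which was called higher in BERKO mDPC, had -0.34 ± 0.16 (adjusted p = 0.157).

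With LY3201, 2 of 10 were called higher and 3 lower in BERKO MN, against 9.01% and 10.6% of all tested genes. Slc7a11 differed by 1.69 ± 0.23 (adjusted p = 2.11e-05) and Slc7a5 by 1.14 ± 0.15 (adjusted p = 1.85e-05). The genes called lower were Sesn2 (-0.46 ± 0.12, adjusted p = 0.0082), Slc3a2 (-0.38 ± 0.12, adjusted p = 0.0357) and Nupr1 (-0.82 ± 0.18, adjusted p = 0.00238). The Slc3a2 and Nupr1 values leaned on WT replicate 1, whose levels were 13.33 and 7.47; without it they were -0.153 (adjusted p = 0.455) and -0.447 (adjusted p = 0.0578). Slc3a2 also lost its call without BERKO replicate 1 (-0.351, adjusted p = 0.142), without BERKO replicate 2 (-0.402, adjusted p = 0.104) and after quantile normalization (-0.126, adjusted p = 0.598), and Sesn2 without WT replicate 2 (-0.386, adjusted p = 0.0936) or BERKO replicate 2 (-0.427, adjusted p = 0.067). When only the compared groups were fitted only Slc7a5 stayed called, and Slc7a11 had adjusted p = 0.0628.

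Cell type markers differed widely between the MN lines, beside 13.5% of all tested genes called higher and 7.31% lower in untreated BERKO MN. In untreated MN, neuron genes were lower in BERKO for 9 of 10 (list means 7.15 to 7.41 against 7.75 to 9.51 in WT) and mesenchymal genes for 8 of 8 (4.87 to 5.07 against 7.12 to 7.14). Ependymal genes were higher for 4 of 5 tested (9.07 to 9.73 against 8.01 to 8.07), and proliferation genes for 9 of 9 (8.76 to 8.95 against 7.95 to 8.21). The part of these in the MN values of the 10 genes was not tested.

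Along the WT series, the step from mESC to NPC had 7 of 10 genes called lower and 1 higher, against 35% of all tested genes called lower and 27.9% higher. Without Trib3, whose passing of the filter rested on its high mESC level, 6 of 9 were lower. The largest fall was that of Asns (-5.02 ± 0.13, adjusted p = 2.71e-17). Sesn2 changed by -1.74 ± 0.12, Slc7a5 by -1.71 ± 0.15, Slc3a2 by -1.59 ± 0.12, Atf4 by -1.53 ± 0.14 and Nupr1 by -1.21 ± 0.18. Trib3 went from a mean of 4.41, itself below the negative-control percentile, to a level under the array median. Its value, -1.30 ± 0.10, is therefore a difference within background. Slc7a11 rose by 2.56 ± 0.23 from a background level. Chac1 (-0.16 ± 0.17) and Ddit3 (-0.10 ± 0.15) were not called, although the second Ddit3 cluster was (-0.413, adjusted p = 0.0386). In BERKO the same 7 were lower (6 of 9 without Trib3) and Slc7a11 higher, against 35.9% and 27.7% of all tested genes. There Asns changed by -4.24 ± 0.13, Atf4 by -1.26 ± 0.14, Nupr1 by -1.15 ± 0.18, Sesn2 by -1.14 ± 0.12, Trib3 by -0.81 ± 0.10, Slc3a2 by -0.73 ± 0.12 and Slc7a5 by -0.67 ± 0.15, and Slc7a11 rose by 4.68 ± 0.23.

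From NPC to mDPC, WT cells had 4 of 10 called higher and 1 lower, against 14.6% and 15.8% of all tested genes. Slc7a11 rose by 5.55 ± 0.23 (adjusted p = 4.2e-13), Slc7a5 by 1.74 ± 0.15, Slc3a2 by 1.07 ± 0.12 and Ddit3 by 0.49 ± 0.15, while Sesn2 fell (-0.79 ± 0.12). Asns (-0.25 ± 0.13, adjusted p = 0.177), Chac1 (0.27 ± 0.17, adjusted p = 0.294) and Nupr1 (-0.25 ± 0.18, adjusted p = 0.34) were not called. The Ddit3 call was lost without WT NPC replicate 2 (0.275, adjusted p = 0.299), without WT mDPC replicate 1 (0.422, adjusted p = 0.118), when only the compared groups were fitted (adjusted p = 0.0749) and with the second cluster (0.34, adjusted p = 0.145).

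In BERKO the same step had 8 of 10 called higher and 0 lower, against 16.5% and 18.9% of all tested genes, with a median of 1.43 beside 0.04 over all tested genes. Without Trib3, which was under the array median in 3 of these 4 arrays, 7 of 9 were higher. Slc7a11 rose by 6.98 ± 0.23 (adjusted p = 8.08e-15), Slc7a5 by 2.29 ± 0.15, Slc3a2 by 1.98 ± 0.12, Chac1 by 1.88 ± 0.17, Asns by 1.53 ± 0.13, Nupr1 by 1.34 ± 0.18, Ddit3 by 0.86 ± 0.15 and Trib3 by 0.30 ± 0.10. Atf4 (0.19 ± 0.14, adjusted p = 0.313) and Sesn2 (-0.27 ± 0.12, adjusted p = 0.0817) were not called. The Trib3 call was lost without BERKO NPC replicate 1 (0.346, adjusted p = 0.0543), BERKO NPC replicate 2 (0.254, adjusted p = 0.178) or BERKO mDPC replicate 1 (0.134, adjusted p = 0.439), and after quantile normalization (0.222, adjusted p = 0.0942). With LY3201 the step had 4 higher and 2 lower of 10 in WT (13.2% and 13.8% of all tested genes) and 7 higher and 0 lower in BERKO (17.3% and 15.8%).

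From mDPC to MN, WT cells had 1 of 10 called higher and 4 lower, against 18% and 24% of all tested genes. Slc7a11 changed by -5.40 ± 0.23 (adjusted p = 3.02e-13), Slc7a5 by -2.91 ± 0.15, Sesn2 by -0.51 ± 0.12 and Atf4 by -0.48 ± 0.14, while Nupr1 rose by 1.89 ± 0.18. The Atf4 call was lost without WT mDPC replicate 1 (-0.445, adjusted p = 0.0531) or WT MN replicate 1 (-0.359, adjusted p = 0.10). In BERKO 1 was called higher and 8 lower, against 20.1% and 30.8%, with a median of -1.59 beside -0.14 over all tested genes. Without Trib3, 7 of 9 were lower. The falls were -7.24 ± 0.21 in Slc7a11 (adjusted p = 4.82e-16), -3.46 ± 0.14 in Slc7a5, -2.59 ± 0.12 in Asns, -2.01 ± 0.16 in Chac1, -1.61 ± 0.11 in Sesn2, -1.56 ± 0.11 in Slc3a2, -1.20 ± 0.13 in Atf4 and -0.43 ± 0.10 in Trib3. Nupr1 rose by 0.43 ± 0.16 (adjusted p = 0.0336), a call lost without BERKO mDPC replicate 2 (0.213, adjusted p = 0.397), BERKO MN replicate 1 (0.411, adjusted p = 0.0729) or BERKO MN replicate 2 (0.377, adjusted p = 0.093). The Trib3 call was lost without BERKO mDPC replicate 1 (-0.26, adjusted p = 0.0592). Ddit3 was at -0.331 (adjusted p = 0.0518) with the cluster used and at 0.296 (adjusted p = 0.115) with the second one. With LY3201, 1 was higher and 4 lower of 10 in WT (17.7% and 24.3% of all tested genes) and 1 higher and 9 lower in BERKO (18.2% and 28%), which was 8 of 9 lower without Trib3.

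The differences between the lines in these steps were tested in the same model. From mESC to NPC, 6 of 10 genes had a called difference in the BERKO direction and 0 in the other, against 6.35% and 3.25% of all tested genes, and 5 of 9 without Trib3. Slc7a11 rose more in BERKO (2.12 ± 0.32, adjusted p = 0.000197), and the falls of Slc7a5 (1.05 ± 0.21, adjusted p = 0.00299), Slc3a2 (0.86 ± 0.17, adjusted p = 0.00266) and Asns (0.78 ± 0.19, adjusted p = 0.0107) were smaller in BERKO. From NPC to mDPC, 5 of 10 rose more in BERKO and 0 less, against 3.68% and 4.99% of all tested genes. These were Asns (1.78 ± 0.19, adjusted p = 4.01e-06), Chac1 (1.61 ± 0.25, adjusted p = 0.000241), Nupr1 (1.59 ± 0.25, adjusted p = 0.00029), Slc7a11 (1.43 ± 0.32, adjusted p = 0.00678) and Slc3a2 (0.91 ± 0.17, adjusted p = 0.00174). From mDPC to MN, 7 of 10 had a called negative difference and 0 a positive one, against 5.15% and 7.31% of all tested genes, with Asns at -2.71 ± 0.18 (adjusted p = 5.72e-09) and Slc3a2 at -1.60 ± 0.16 (adjusted p = 1.43e-06). Consecutive steps share the arrays of a stage, NPC for the first 2 tests and mDPC for the last 2. Neighbouring tests are therefore not independent of each other. Slc7a5 rose in both lines from NPC to mDPC, and its difference of 0.56 ± 0.21 between them was not called (adjusted p = 0.127).

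LY3201 was compared with untreated cells within each stage and line, and 0 of 10 genes were called in any of the 6 comparisons in limma. The number at an unadjusted p under 0.05 was 0 in WT NPC, 0 in BERKO NPC, 2 in WT mDPC, 1 in BERKO mDPC, 1 in WT MN and 0 in BERKO MN. Of all tested genes, 0.00453%, 0%, 0.0635%, 0.113%, 1.83% and 0.344% were called in these 6 comparisons. The largest difference was that of Slc7a11 in WT mDPC, at 11.17 and 11.59 with LY3201 and 11.91 and 12.28 without. These arrays did not overlap, and the difference was -0.71 ± 0.23 with a 95% interval from -1.18 to -0.24 (adjusted p = 0.23). In BERKO mDPC the same gene read 15.91 and 15.66 with LY3201 and 15.31 and 15.62 without, a difference of 0.32 ± 0.23 with an interval from -0.15 to 0.79. The difference between these effects, 1.03 ± 0.32, was not called (adjusted p = 0.41). Sesn2 in WT mDPC read 8.0 and 8.01 with LY3201 and 7.69 and 7.69 without, a difference of 0.31 ± 0.12 (adjusted p = 0.284). Over the 10 genes, the 95% intervals in mDPC ran from -1.18 to 0.56 in WT and from -0.73 to 0.79 in BERKO, in NPC from -0.57 to 0.54 and from -0.58 to 0.75, and in MN from -0.71 to 0.53 and from -0.59 to 0.60. Differences of the agonist effects between the lines were called for 0 of 10 genes in NPC, mDPC and MN, with 0, 1 and 0 at an unadjusted p under 0.05 and 0.499%, 0% and 0.63% of all tested genes called.

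Other genes of the same physiology were read from 8 lists, also chosen with earlier results of these data known. In untreated mDPC, cytosolic tRNA synthetases, which charge tRNA with amino acids, had 10 of 18 tested genes higher in BERKO and 0 lower (median 0.51), led by Iars (1.37 ± 0.13, adjusted p = 1.77e-07), Gars (1.07 ± 0.12, adjusted p = 2.8e-06) and Yars (0.98 ± 0.10). With LY3201, 10 of these were higher and 2 lower (Farsa, -0.43 ± 0.08, and Qars, -0.25 ± 0.08). Of 13 genes of amino acid and one-carbon synthesis, 8 were higher and 1 lower (median 0.56). Aldh1l2, a mitochondrial folate dehydrogenase, was at 10.58 in BERKO and 7.16 in WT (3.42 ± 0.14, adjusted p = 1.67e-12), Aldh18a1, of proline synthesis, at 1.67 ± 0.11 and Shmt2, the mitochondrial serine hydroxymethyltransferase, at 1.40 ± 0.13. The gene that was lower, Cbs, encodes cystathionine beta-synthase, of the route from homocysteine to cysteine (-2.03 ± 0.10, adjusted p = 2.29e-11). With LY3201 the list had 7 higher and 2 lower, with Phgdh, which starts serine synthesis, among the latter (-0.72 ± 0.15).

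Other amino acid transporters were split, with 4 of 13 higher and 3 lower in untreated BERKO mDPC (median -0.01). The cationic amino acid carriers Slc7a1 (2.03 ± 0.14, adjusted p = 2.45e-09) and Slc7a3 (1.34 ± 0.19) and the glycine carrier Slc6a9 (0.76 ± 0.11) were higher, and the glutamine carrier Slc38a1 was lower (-1.11 ± 0.08, adjusted p = 1.24e-08). Of 8 further ISR effectors, 4 were higher and 0 lower (median 0.22), with Eif4ebp1, an inhibitor of translation initiation, at 1.5 ± 0.18, the lipoprotein receptor Vldlr at 1.30 ± 0.12 and Vegfa at 0.84 ± 0.27. The upstream kinases, phosphatase subunits and partner factors of the ISR showed 2 of 11 higher and 1 lower (median 0.07). Those higher were Ppp1r15b, a subunit that directs eIF2α dephosphorylation (0.55 ± 0.12, adjusted p = 0.00278), and Atf5 (0.37 ± 0.10, adjusted p = 0.0116), and the kinase gene Eif2ak1 was lower (-0.26 ± 0.07, adjusted p = 0.0131). The mRNA of Eif2ak4 and Eif2ak3, the amino acid and endoplasmic reticulum sensors, was not called.

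Lists of 3 neighbouring stress programs served for comparison. Of the endoplasmic reticulum unfolded protein response, 4 of 16 were higher and 0 lower in untreated BERKO mDPC (median 0.16), led by Herpud1 (1.06 ± 0.11, adjusted p = 7.29e-07). Of Nrf2 and glutathione genes, 0 of 12 were higher and 3 lower (median 0.02), among them Nqo1 (-0.59 ± 0.15) and Txnrd1 (-0.42 ± 0.09). Of p53 targets, 2 of 11 were higher and 1 lower (median 0.14), with Cdkn1a, an inhibitor of the cell cycle, at 1.57 ± 0.21 (adjusted p = 1.99e-05). These counts stand beside 8.51% of all tested genes called higher and 5.32% called lower, and no difference between lists was tested.

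With LY3201 in mDPC, beside 7.23% of all tested genes higher and 8.1% lower, other transporters had 5 of 13 higher and 3 lower, further ISR effectors 3 of 8 higher and 0 lower, and ISR kinases and factors 2 of 11 higher and 0 lower. The unfolded protein response list had 2 of 16 higher and 0 lower, the Nrf2 list 0 of 12 higher and 2 lower, and the p53 list 2 of 11 higher and 0 lower.

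In untreated NPC, where 4 of the 10 genes were higher, 9 of 18 tRNA synthetases were higher and 1 lower, and 7 of 13 synthesis genes higher and 2 lower, beside 10.6% of all tested genes higher and 5.08% lower. Both ISR lists had 0 called genes there in limma. In NPC with LY3201 the counts were smaller, with 3 of 18 tRNA synthetases higher and 1 lower and 4 of 13 synthesis genes higher and 2 lower, beside 4.56% and 5.81%. In untreated MN, tRNA synthetases had 0 of 18 called in limma and synthesis genes 1 of 13 higher and 4 lower, beside 13.5% and 7.31%. In MN with LY3201, 5 of 18 tRNA synthetases and 5 of 13 synthesis genes were lower and 0 higher, beside 10.6% lower and 9.01% higher. From mDPC to MN in BERKO, where 30.8% of all tested genes were lower and 20.1% higher, 13 of 13 synthesis genes were lower (median -1.18), 14 of 18 tRNA synthetases were lower and 1 higher, and in the unfolded protein response list 11 of 16 were higher and 0 lower. From mESC to NPC, where 35% of all tested genes were lower in WT and 35.9% in BERKO, tRNA synthetases were lower for 18 of 18 in both lines, with a median of -2.23 in WT and -1.93 in BERKO.

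**Figure D4:**
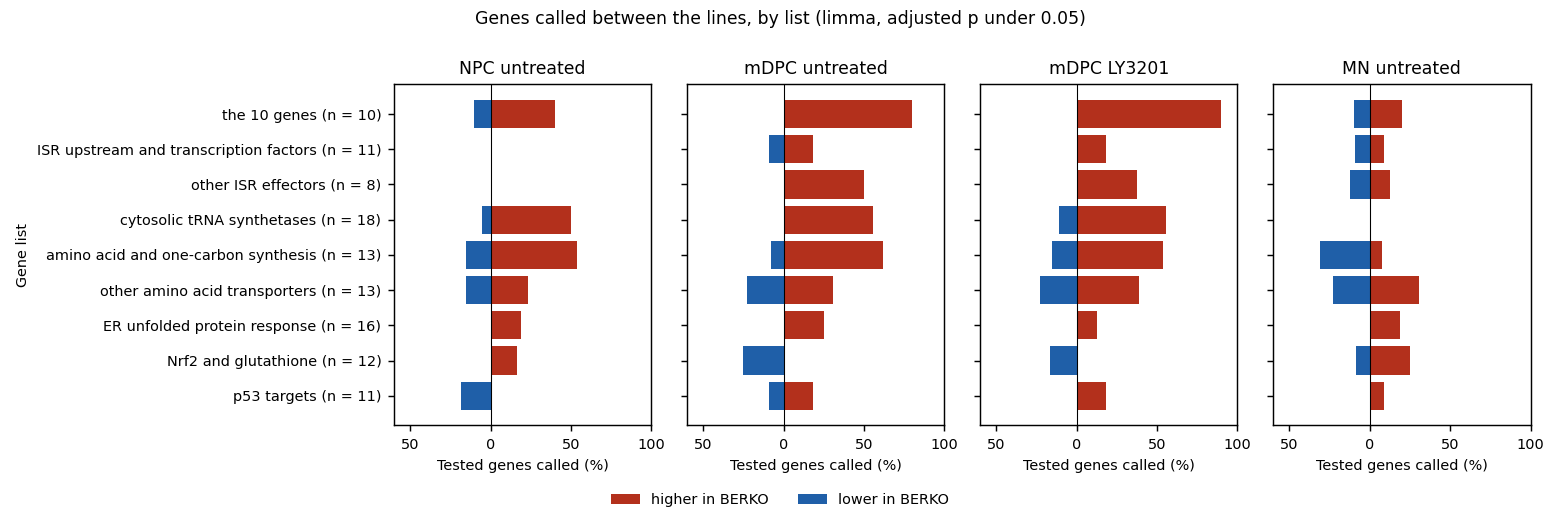
Percent of the tested genes of each list (x axis) that were called higher (red) or lower (blue) in BERKO than in WT, for untreated NPC, untreated mDPC, mDPC with LY3201 and untreated MN. The 10 genes (top row) reach 80 and 90% higher in the mDPC panels, where tRNA synthetases reach 10 of 18.

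Over the 14 group means, the members did not share 1 pattern. As a description over groups that share lines and stages, Atf4 ran closest to Sesn2 (Pearson r = 0.965), Asns (r = 0.934) and Trib3 (r = 0.884), the genes that were highest in mESC. Chac1 ran with Slc3a2 (r = 0.855) and Ddit3 with Slc7a11 (r = 0.779). The lowest pairs were Ddit3 with Sesn2 (r = -0.453) and Slc7a5 with Nupr1 (r = -0.427). Set against the mean of the other 9 genes, Chac1 (r = 0.869), Slc7a5 (r = 0.867) and Slc3a2 (r = 0.836) followed best, and Slc7a11 (r = 0.164) and Nupr1 (r = -0.171) least. These means of 9 were not scaled. Slc7a11, with the widest range, weighs most in all of them except its own, so the values are not alike. The 10 genes were each centred on their own mean over groups, without scaling, and averaged. This mean was highest in BERKO mDPC at 1.5 untreated and 1.40 with LY3201, followed by WT mESC at 0.53 and BERKO mESC at 0.33. It was lowest in untreated WT NPC at -0.65. Slc7a11 weighs most in it, as its group means span 11.98, against 5.34 for Asns, the next widest. The order of groups therefore leans on this 1 gene.

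The 8 other tested genes whose group means ran most like this mean profile were Ryr2 (r = 0.961), Ndufs1 (r = 0.95), Mettl22 (r = 0.928), Ryr3 (r = 0.923), Atf5 (r = 0.917), Ptges2 (r = 0.916), Mapk1ip1 (r = 0.912) and Ndufaf4 (r = 0.909), over the same 14 groups. Of these, Ndufs1 and Ndufaf4 ranged from 9.56 to 11.12 and from 7.35 to 8.46, while the group means of the other 6 of the 8 stayed below 6.632, the lowest 95th percentile of the negative controls on any array, with highest group means from 4.23 in Ryr3 to 6.45 in Mapk1ip1. Their profiles are therefore of levels within background. They were taken from 22063 genes by likeness to a mean in which Slc7a11 weighs most, so their likeness is a description.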

How the data were processed

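Total RNA from 29 samples, 150 ng per array per the labels' protocols, was measured on 29 arrays. Levels were deposited by the authors as log2 values per transcript cluster, computed by the SST-RMA method of Affymetrix Expression Console 1.4, per the labels, and were used as given. RMA and Transcriptome Analysis Console are named without versions in the submitters' processing notes. The genome build of the clusters is not given in the sources used here. Of 72688 entries, 65956 were transcript clusters, of which 30604 had 1 gene symbol, 2146 several and 33206 none; 827 symbols were updated through RefSeq. Ddit3 had 2 clusters and every other member 1.

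limma 3.58.1 in R 4.3.3 fitted a mean per group to all 29 arrays (15 residual degrees of freedom, prior 3.303), with empirical Bayes moderation, and each contrast was adjusted by Benjamini-Hochberg over 22063 genes, 2-sided, at 0.05. The small number of arrays limits the precision. The model was tested on simulated data. Of changes of 0.5 log2 units, it recovered 34% between the lines in untreated mDPC. It recovered 8% for the difference of steps from NPC to mDPC and 44% for LY3201 in WT mDPC. For changes of 1 log2 unit, these were 86%, 76% and 94%. The adjusted threshold depends on how many genes change. In the data, 13.8% of all tested genes were called between the lines in untreated mDPC, and 14 genes for LY3201 in WT mDPC. The recovery rates therefore hold for the simulated setting and do not carry over to these comparisons. Genes named are the 10 members, Esr2, up to 3 called genes with the largest rise and 3 with the largest fall per list, 8 genes with the most similar profile, and markers as levels. The members and lists were chosen with earlier results of these data known. Promoters were read from RefSeq (GRCm38.p6). Alternatives were no filter, quantile normalization, a filter at the 75th percentile, the compared groups alone, a trended robust prior, same-number arrays averaged, the next Ddit3 cluster and each array left out. Figures were drawn with matplotlib 3.10.9.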

Additional observations from a re-analysis of the deposited data

Results flagged for a closer look

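Steps between stages differed between the lines for several members (BERKO step minus WT step, limma, adjusted p under 0.05). From mESC to NPC the difference was 2.12 for Slc7a11, 1.05 for Slc7a5, 0.86 for Slc3a2, 0.78 for Asns, 0.60 for Sesn2 and 0.48 for Trib3. The Trib3 call was lost without any 1 of the 8 arrays (0.426 to 0.544, adjusted p up to 0.157), the Sesn2 call without 6 of them, those other than BERKO mESC replicate 1 and BERKO NPC replicate 1 (0.385 to 0.611, adjusted p up to 0.158), and the Asns call without WT NPC replicate 1 or BERKO NPC replicate 2 (0.66 and 0.715, adjusted p up to 0.0663). Trib3 was within background throughout.

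From NPC to mDPC the difference was 1.78 for Asns, 1.61 for Chac1, 1.59 for Nupr1, 1.43 for Slc7a11 and 0.91 for Slc3a2. From mDPC to MN it was -2.71 for Asns, -1.84 for Chac1, -1.84 for Slc7a11, -1.60 for Slc3a2, -1.47 for Nupr1, -1.10 for Sesn2 and -0.72 for Atf4. The Atf4 call was lost without WT mDPC replicate 2, BERKO mDPC replicate 1 or WT MN replicate 2 (-0.684 to -0.598, adjusted p up to 0.0795). The 2 sets share the mDPC arrays.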

How the results depend on the processing

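No paired analysis was possible because no compared groups share more than 1 number in their titles; WT and BERKO MN with LY3201 share 1, the number 10, on 1 array each. Of 319 alternative counts of members called per comparison, 309 stayed within 1.5 times the count reported and 10 did not. Between the lines in mESC the count was 1 with the filter at the 75th percentile and 1 after quantile normalization, against 0. In NPC with LY3201 it was 2 with same-number arrays averaged, against 4. In MN with LY3201 it was 1 in the compared groups alone, against 5. With each array left out, it ran from 2 to 3 in NPC with LY3201, from 3 to 5 in MN with LY3201 and from 3 to 5 for the difference of the step from mESC to NPC, against 6; where this left 1 array in a group, that array was taken to vary like the other groups. Of 1319 alternative values of called genes, 1218 kept the call and the rest lost it. No filter, the 75th percentile filter, the trended prior, the compared groups alone and averaged same-number arrays leave a difference unchanged, so it could not reverse. Under quantile normalization, with an array left out and with the next Ddit3 cluster, 0 reversed. Of those lost, 71 came from leaving out an array and 13 from the compared groups alone; the cause was not tested for the others. Quantile normalization moved no median of all genes by 0.1 or more, which does not describe single members. Of 123 called values, 5 lost the call under it. Among these was Slc3a2 between the lines, at 0.352 in untreated NPC and -0.126 in MN with LY3201. Levels within the negative controls limit Chac1, Trib3, nearly all Nupr1 arrays, the lower Ddit3 arrays and the low Slc7a11 levels.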

Other observations

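The core letters TGATGNAA, present in 3.97% of all promoter windows, were also searched in the windows of the other lists. They were found in 5 of 13 tRNA synthetase windows (Aars, Gars, Iars, Tars and Yars), 3 of 12 windows of synthesis genes (Got1, Pck2 and Pycr1), 2 of 9 of other transporters (Slc1a4 and Slc7a7), 2 of 11 of ISR kinases and factors (Atf3 and Jdp2), 2 of 8 of further effectors (Fgf21 and Vldlr) and 1 of 15 of the unfolded protein response list (Herpud1). The Nrf2 list had 0 of 11 and the p53 list 0 of 9. Of the genes named for mDPC above, the windows of Iars, Gars, Yars, Vldlr and Herpud1 held the letters and those of Aldh18a1, Shmt2, Slc7a1, Slc6a9 and Atf5 did not. These counts describe letters in windows and were not tested.

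In untreated BERKO mDPC, replicate 1 read higher than replicate 2 for 9 of the 10 members, by 0.81 for Chac1. The spread over all genes between these 2 arrays, an SD of 0.222, lay within the range over all pairs of replicates, 0.182 to 0.354.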
